A study of Mus musculus with 16 samples.

Results

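The 10 genes described here, Snap25, Syt1, Rbfox3, Stmn2, Gad1, Gad2, Slc17a7, Tubb3, Nefl and Nrgn, are widely used markers of neurons, and they were followed in oligodendrocytes sorted from mouse brain. They were picked by symbol from a gene table of 53801 rows, each symbol matched 1 row, and all 10 were among the 21768 genes that passed the filter on low counts. The libraries came from male mice in 4 groups of 4, with each mouse a library. App_HFD mice were homozygous for the App NL-G-F knock-in allele, which carries a humanized amyloid sequence with the Swedish, Iberian and Arctic mutations in the mouse's own App gene, and ate a high-fat diet (60% of energy as fat, 524 kcal/100 g). App_NCD mice had that genotype and a normal control diet (12.5% of energy as fat, 345 kcal/100 g), WT_HFD mice were C57BL/6J Jcl wild types on the high-fat diet, and WT_NCD mice were C57BL/6J Jcl wild types on the control diet. All were on their diet for 6 months from an age of 2 months, and their brains were taken at 8 months after perfusion with saline. Oligodendrocytes were isolated with magnetic beads, and polyadenylated RNA was sequenced. The wild types were purchased and the knock-in mice were kept as an inbred line in the laboratory, so genotype and origin of the mice cannot be told apart.

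Neurons signal through synapses: vesicles filled with transmitter fuse with the membrane by SNARE proteins when calcium enters, and long axons are held up by microtubules and neurofilaments. Excitatory neurons load vesicles with glutamate, inhibitory ones with GABA that they make from glutamate. Oligodendrocytes wrap these axons in myelin, so a suspension of sorted oligodendrocytes can bring axon fragments or whole neurons along. In cells other than neurons many of these genes are held silent by the repressor REST, which binds a motif called RE1 near its targets.

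RefSeq gave the sequence around the start site (250 bases before it and 50 after, build GRCm38.p6) for 7 of the 10 genes, in 8 windows, and those of 5 genes are printed here 5′ to 3′ on the strand of the gene. They are shown because Tubb3 was far more abundant than the other 9, Gad2 is the gene with a core RE1 match, and Nrgn, Slc17a7 and Syt1 were called lower in App libraries once 1 library was left out. Capitals mark matches to AGCACC and GGACAG (the half-sites of RE1) and to GGGCGG (a GC box) on either strand. The genomic positions are chr8:123411303-123411602 (plus strand) for Tubb3, chr2:22622077-22622376 (plus) for Gad2, chr9:37552696-37552995 (minus) for Nrgn, chr7:45163671-45163970 (plus) for Slc17a7 and chr10:109010926-109011225 (minus) for the upstream of the 2 Syt1 windows.
Tubb3: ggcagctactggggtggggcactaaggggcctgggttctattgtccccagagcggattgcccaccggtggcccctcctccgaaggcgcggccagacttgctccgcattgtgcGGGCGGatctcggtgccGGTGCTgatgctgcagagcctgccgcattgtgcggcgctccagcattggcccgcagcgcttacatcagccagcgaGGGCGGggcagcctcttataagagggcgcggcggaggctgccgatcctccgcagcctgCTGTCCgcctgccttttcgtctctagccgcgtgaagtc
Gad2: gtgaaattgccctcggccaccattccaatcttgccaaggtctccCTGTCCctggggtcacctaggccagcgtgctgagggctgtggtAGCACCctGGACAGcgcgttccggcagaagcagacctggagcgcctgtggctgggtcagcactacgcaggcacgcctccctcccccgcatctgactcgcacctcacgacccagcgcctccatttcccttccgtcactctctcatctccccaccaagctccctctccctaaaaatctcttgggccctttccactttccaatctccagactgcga
Nrgn: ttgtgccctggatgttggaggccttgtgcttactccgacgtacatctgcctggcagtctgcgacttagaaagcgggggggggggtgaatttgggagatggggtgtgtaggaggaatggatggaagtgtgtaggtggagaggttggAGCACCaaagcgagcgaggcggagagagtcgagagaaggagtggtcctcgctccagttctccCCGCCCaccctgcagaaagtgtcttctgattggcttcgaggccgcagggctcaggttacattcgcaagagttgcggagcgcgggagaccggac
Slc17a7: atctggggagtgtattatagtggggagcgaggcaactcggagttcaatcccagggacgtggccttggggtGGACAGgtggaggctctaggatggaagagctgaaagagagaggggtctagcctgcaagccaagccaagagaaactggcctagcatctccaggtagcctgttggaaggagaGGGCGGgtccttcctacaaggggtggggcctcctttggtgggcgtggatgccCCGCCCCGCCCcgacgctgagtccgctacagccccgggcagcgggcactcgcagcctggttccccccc
Syt1: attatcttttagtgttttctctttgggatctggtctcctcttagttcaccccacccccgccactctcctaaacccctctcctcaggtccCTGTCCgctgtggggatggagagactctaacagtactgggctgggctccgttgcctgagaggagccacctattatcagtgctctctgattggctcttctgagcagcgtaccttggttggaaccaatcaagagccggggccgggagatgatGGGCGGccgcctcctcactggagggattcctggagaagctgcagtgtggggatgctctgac
The Gad2 window held the core motif AGCACCNNGGACAG, which 17 of all 32851 RefSeq windows held (0.0517%, both strands searched). The half-sites alone are common: AGCACC stood in 16.2% and GGACAG in 22.2% of all windows, and both overlap the core where it is present. The Tubb3 window held 1 of each half-site, apart from each other and on the reverse strand, and 2 GC boxes, a motif found in 35.7% of windows. It was also rich in CpG, with 26 CpG pairs and 67.3% G and C against medians of 7 and 52.7% over all windows. The Syt1 and Slc17a7 windows had a GGACAG match, and the Nrgn window an AGCACC match, with no core motif.

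Library totals ran between 64538297 and 217925484 counts. App_NCD 553 stood apart from the other 15 libraries before any marker was considered. It had 39.4% of its counts on mitochondrially encoded genes against 1.22% to 4.62% elsewhere, and 18928 genes with a count against 27151 or more. Its scaling factor was 0.493, which raises every value in it relative to a division by the library total, and the edgeR tests below were therefore run with and without it. The sort was rich in oligodendrocyte RNA: 12 myelin and oligodendrocyte genes summed to between 26951 and 50319 CPM, where CPM is the usual scaled count, here relative to library sizes corrected by TMM (trimmed mean of M values). Marker genes of microglia, astrocytes, endothelium and the choroid plexus were present in all 16 libraries as well, some at high levels. Ependyma and choroid plexus genes summed to between 7088 and 36155 CPM, and microglial genes to between 2611 and 15099 CPM. In WT_HFD 2, where the ependyma and choroid plexus sum was highest, the myelin and oligodendrocyte genes had 37887 CPM. Nothing in the labels says on which days mice were processed, and in these bulk libraries fewer cells of a type and less RNA per cell cannot be told apart.

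The 9 markers other than Tubb3 were scarce, and Tubb3, the class III beta-tubulin of microtubules, was not. Over the 15 libraries other than App_NCD 553, Tubb3 averaged 36.6 CPM per kb of exon, at percentile 94.9 of the 21715 tested genes with an annotated length. The median level of those genes was 1.95 CPM per kb. The other markers lay below it: Nrgn at 0.467, Snap25 at 0.331, Syt1 at 0.267, Stmn2 at 0.222 and Nefl at 0.203 CPM per kb, between percentiles 20.3 and 31.3. Gad1 at 0.0930, Gad2 at 0.0634, Rbfox3 at 0.0371 and Slc17a7 at 0.0240 CPM per kb were lower still, the last at percentile 1.46. None of the 1819 stretches of 50 bases in the Tubb3 transcript occurred in another gene, and no other gene's exons overlapped its own (chromosome 8, 123411424 to 123422015 in mm10, plus strand).

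**Figure D1:**
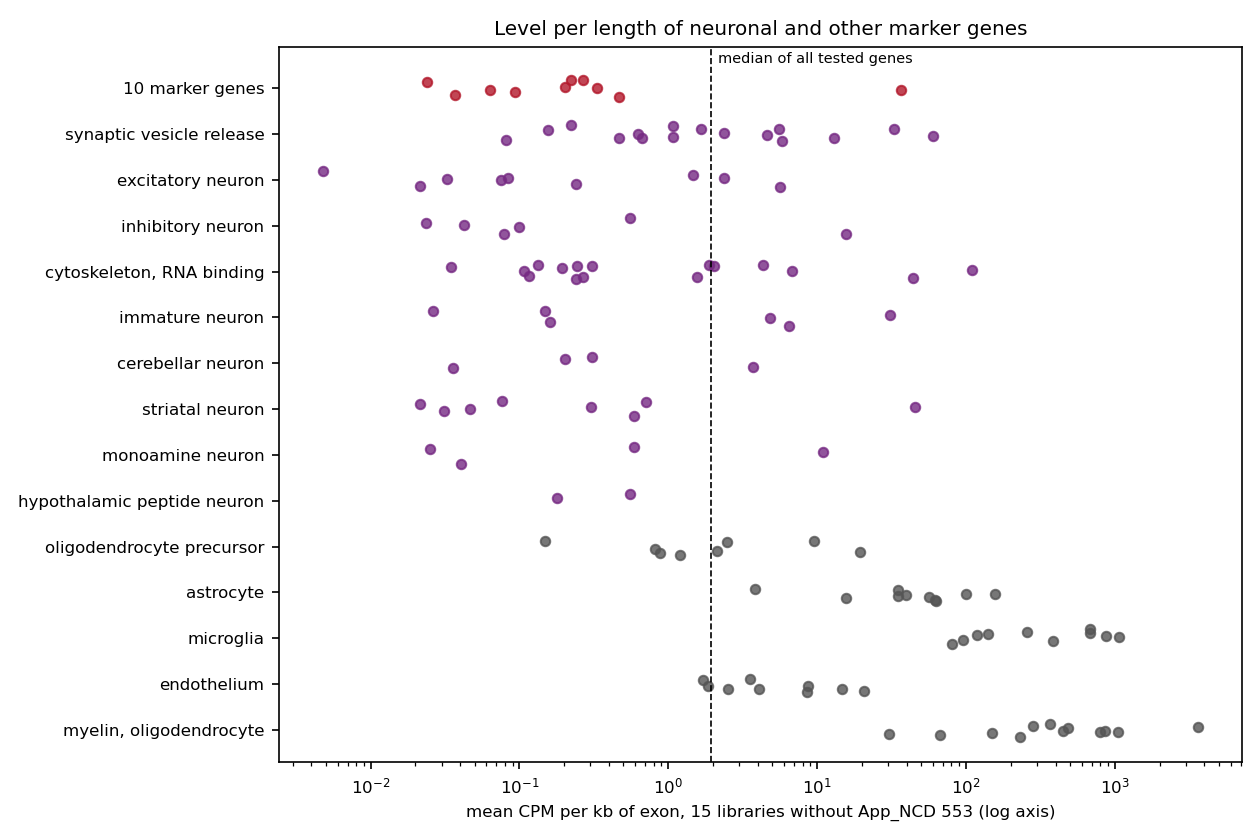
Mean level of single genes in CPM per kb of exon (log axis) over the 15 libraries other than App_NCD 553, with 1 point per tested gene and 1 row per list. In the top row 9 markers sit left of the dashed median of 1.95 CPM per kb and Tubb3, at 36.6, far right of it; the other neuronal lists also spread over several orders of magnitude, and the microglial and myelin genes lie to the right.

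Snap25, a SNARE protein of the presynaptic membrane, had 2.36, 2.31, 1.88 and 2.63 CPM in App_HFD libraries and 1.49, 1.36 and 2.09 CPM in App_NCD libraries, with 9.63 CPM in App_NCD 553. It had 1.95, 3.07, 3.24 and 4.23 CPM in WT_HFD libraries and 1.73, 1.96, 1.16 and 2.24 CPM in WT_NCD libraries. The library of mouse 553 was the highest of all 16 in scaled CPM. It held 339 Snap25 counts where the other App_NCD libraries held 113 to 157, but WT_HFD 16 held 423. Divided by unscaled library totals, mouse 553 had 4.74 CPM, close to the 4.69 CPM of WT_HFD 16. Between the other libraries the groups overlapped.

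Syt1, the calcium sensor of vesicle release, had 1.18, 0.659, 2.35 and 1.18 CPM in App_HFD libraries and 1.26, 2.11 and 1.44 CPM in App_NCD libraries, with 4.09 CPM in App_NCD 553. WT_HFD libraries had 4.85, 2.44, 2.69 and 3.53 CPM and WT_NCD libraries 1.73, 2.70, 2.84 and 2.47 CPM. Every App_HFD library was below every WT_HFD library, with 2.35 CPM in mouse 560 just under 2.44 CPM in WT_HFD mouse 3.

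Stmn2, a stathmin that regulates microtubules in growing axons, had 1.01, 1.40, 1.25 and 1.38 CPM in App_HFD libraries and 0.616, 0.652 and 0.756 CPM in App_NCD libraries. App_NCD 553 was within this range at 0.710 CPM. WT_HFD libraries had 0.961, 1.61, 2.00 and 3.00 CPM and WT_NCD libraries 1.16, 0.797, 1.21 and 0.845 CPM. The 4 App_NCD libraries were the lowest of the 16 and overlapped neither App_HFD nor WT_NCD.

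Nefl, the light subunit of neurofilaments, had 1.01, 0.618, 0.687 and 0.479 CPM in App_HFD libraries and 0.578, 0.386 and 0.523 CPM in App_NCD libraries, against 2.19 CPM in App_NCD 553. WT_HFD libraries had 0.414, 1.41, 0.611 and 0.890 CPM and WT_NCD libraries 0.83, 0.525, 0.796 and 0.514 CPM. Apart from mouse 553 the groups overlapped throughout. The exons of Nefl overlap those of Nefm, on the opposite strand, by 1108 bases; the library kit keeps strand, but whether counting used it is not given in the sources used here.

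Rbfox3, the splicing factor known to histologists as NeuN, had 0.425, 0.357, 0.122 and 0.137 CPM in App_HFD libraries and 0.190, 0.193 and 0.204 CPM in App_NCD libraries. It had 0.207, 0.273, 0.165 and 0.250 CPM in WT_HFD libraries and 0.111, 0.197, 0.183 and 0.220 CPM in WT_NCD libraries. These levels rest on 8 to 29 counts a library, and App_NCD 553 had 0, which at its depth allows up to 0.0852 CPM (3 counts, counting error only). The 4 groups overlapped apart from that 0.

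Nrgn, a calmodulin-binding protein of the postsynaptic side in forebrain excitatory neurons, had 0.488, 0.480, 0.535 and 0.365 CPM in App_HFD libraries and 0.379, 0.278, 0.407 and 0 CPM in App_NCD libraries, the 0 being mouse 553. It had 1.13, 0.744, 1.51 and 0.850 CPM in WT_HFD libraries and 0.662, 0.563, 0.915 and 0.863 CPM in WT_NCD libraries. All 8 App libraries were below all 8 WT libraries, the nearest being 0.535 CPM in App_HFD 560 and 0.563 CPM in WT_NCD 5.

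Slc17a7, the vesicular glutamate transporter VGLUT1, had 0.0473, 0.0686, 0.214 and 0.0456 CPM in App_HFD libraries and 0.0569, 0.0242, 0.0727 and 0 CPM in App_NCD libraries. It had 0.188, 0.235, 0.0873 and 0.170 CPM in WT_HFD libraries and 0.162, 0.150, 0.162 and 0.257 CPM in WT_NCD libraries. The counts behind these values were 3, 5, 14 and 4 in App_HFD and 6, 2, 5 and 0 in App_NCD, against 9 to 25 in WT_HFD and 16 to 38 in WT_NCD. The 0 was mouse 553, whose depth allows up to 0.0852 CPM (3 counts, counting error only). That limit is above the values of the other App_NCD libraries, so this 0 does not show a lower level than theirs. The gene passed the low-count filter through the WT libraries (4 WT_NCD, 3 WT_HFD and 1 App_HFD library reached its cutoff, no App_NCD library did). It was thus tested because of the groups where it was high, and its lower value in App libraries is not free of that selection.

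Gad1, which makes most of the GABA in the cell body, had 0.615, 0.700, 0.306 and 0.877 CPM in App_HFD libraries and 0.559, 0.411, 0.567 and 0.823 CPM in App_NCD libraries. WT_HFD libraries had 0.744, 0.885, 1.14 and 1.07 CPM and WT_NCD libraries 0.534, 0.553, 0.768 and 0.918 CPM. Of its 50-base stretches 3.36% also occur in the pseudogene Gad1-ps, which was itself listed with 0 to 78 counts a library, so reads could have been split between them. Gad2, the glutamate decarboxylase of nerve terminals, ranged from 0.290 to 0.473 CPM in App_HFD libraries and from 0.121 to 0.664 CPM in App_NCD libraries, with 1.05 CPM in App_NCD 553. It ranged from 0.254 to 0.640 CPM in WT_HFD libraries and from 0.162 to 0.403 CPM in WT_NCD libraries. Neither gene separated any of the pairs of groups compared below.

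Tubb3 had 98.6, 64.8, 86.2 and 90.8 CPM in App_HFD libraries and 46.1, 51.0 and 53.0 CPM in App_NCD libraries, with 8.46 CPM in App_NCD 553. It had 71.6, 87.5, 80.7 and 75.6 CPM in WT_HFD libraries and 50.7, 52.1, 57.2 and 59.9 CPM in WT_NCD libraries. Every high-fat library was above every control-diet library of the same genotype. In mouse 553 Tubb3 was the lowest of the 16, while Snap25, Syt1, Nefl, Gad1 and Gad2 were above the other 3 App_NCD libraries in scaled CPM. Divided by library totals alone, Snap25 and Nefl were still above them (Nefl at 1.08 CPM), but Syt1 at 2.02 CPM was below the 2.14 CPM of App_NCD 538, Gad2 at 0.518 CPM was below the 0.688 CPM of App_NCD 537, and Gad1 at 0.406 CPM was below all 3.

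**Figure D2:**
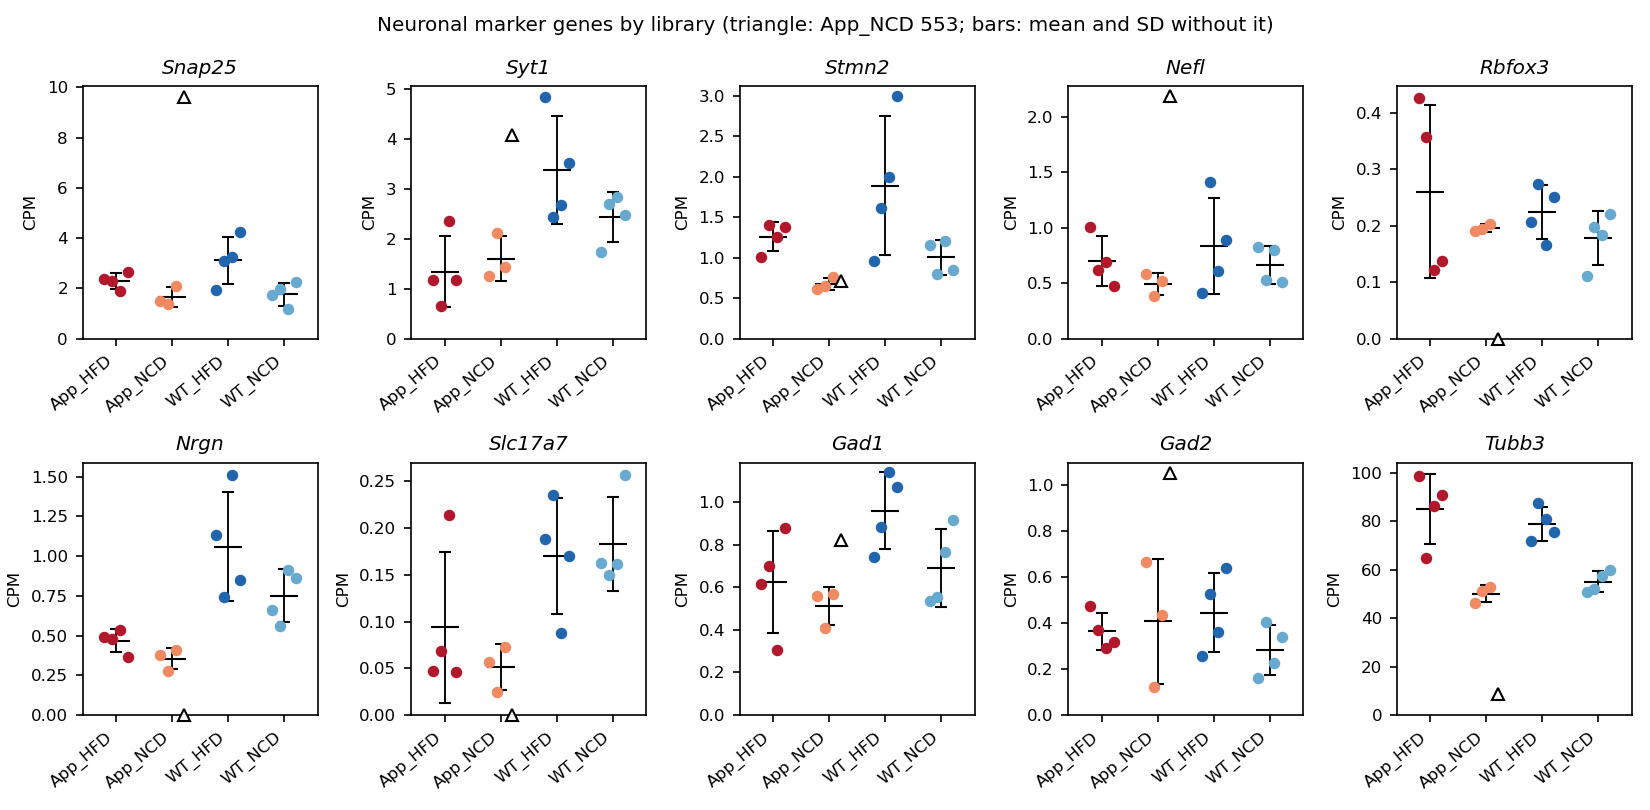
Level of each marker in CPM (linear axis from 0) in the 16 libraries, with 1 point per mouse, bars for the mean and SD without App_NCD 553, and a triangle for that library. The triangle is the top point for Snap25 at 9.63 CPM and Nefl at 2.19 CPM and lies at 0 for Rbfox3, Nrgn and Slc17a7; Tubb3 is higher in the HFD libraries of both genotypes.

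The 9 markers other than Tubb3 were summed as a description. Leaving out Tubb3 was decided after its level was seen, since it alone would set the sum. The sum still leans on the most abundant of the 9 and is not an even measure of neuronal RNA. Over the 15 libraries other than mouse 553, Snap25 averaged 2.247 CPM and Syt1 2.23 CPM, of a mean sum of 8.51 CPM. In mouse 553 Snap25 had 9.63 CPM and Syt1 4.09 CPM, while Rbfox3, Nrgn and Slc17a7 were at 0. The 9 summed to 7.41 ± 0.315 CPM in App_HFD libraries (SD, n = 4), with a range of 6.96 to 7.64. They summed to 5.94 ± 0.496 CPM in App_NCD libraries without mouse 553 (SD, n = 3), which itself had 18.5 CPM, the highest of all on this scale. Divided by library totals alone mouse 553 had 9.11 CPM, below the 4 WT_HFD libraries at 11.2 to 16.2 CPM and below WT_NCD 12 at 9.58 CPM. They summed to 12.1 ± 1.76 CPM in WT_HFD libraries and 7.97 ± 0.681 CPM in WT_NCD libraries (SD, n = 4 each). The WT_HFD libraries, from 10.7 to 14.6 CPM, lay above all other libraries except mouse 553, and above that one too with library totals. With Tubb3 the order was another one, at 92.5 ± 14.8 CPM in App_HFD, 56.0 ± 3.82 CPM in App_NCD without mouse 553 (n = 3), 90.9 ± 6.79 CPM in WT_HFD and 62.9 ± 4.94 CPM in WT_NCD libraries (SD, n = 4 for the other groups). Even the 18.5 CPM of mouse 553 were small beside its 50319 CPM from the 12 myelin and oligodendrocyte genes.

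**Figure D3:**
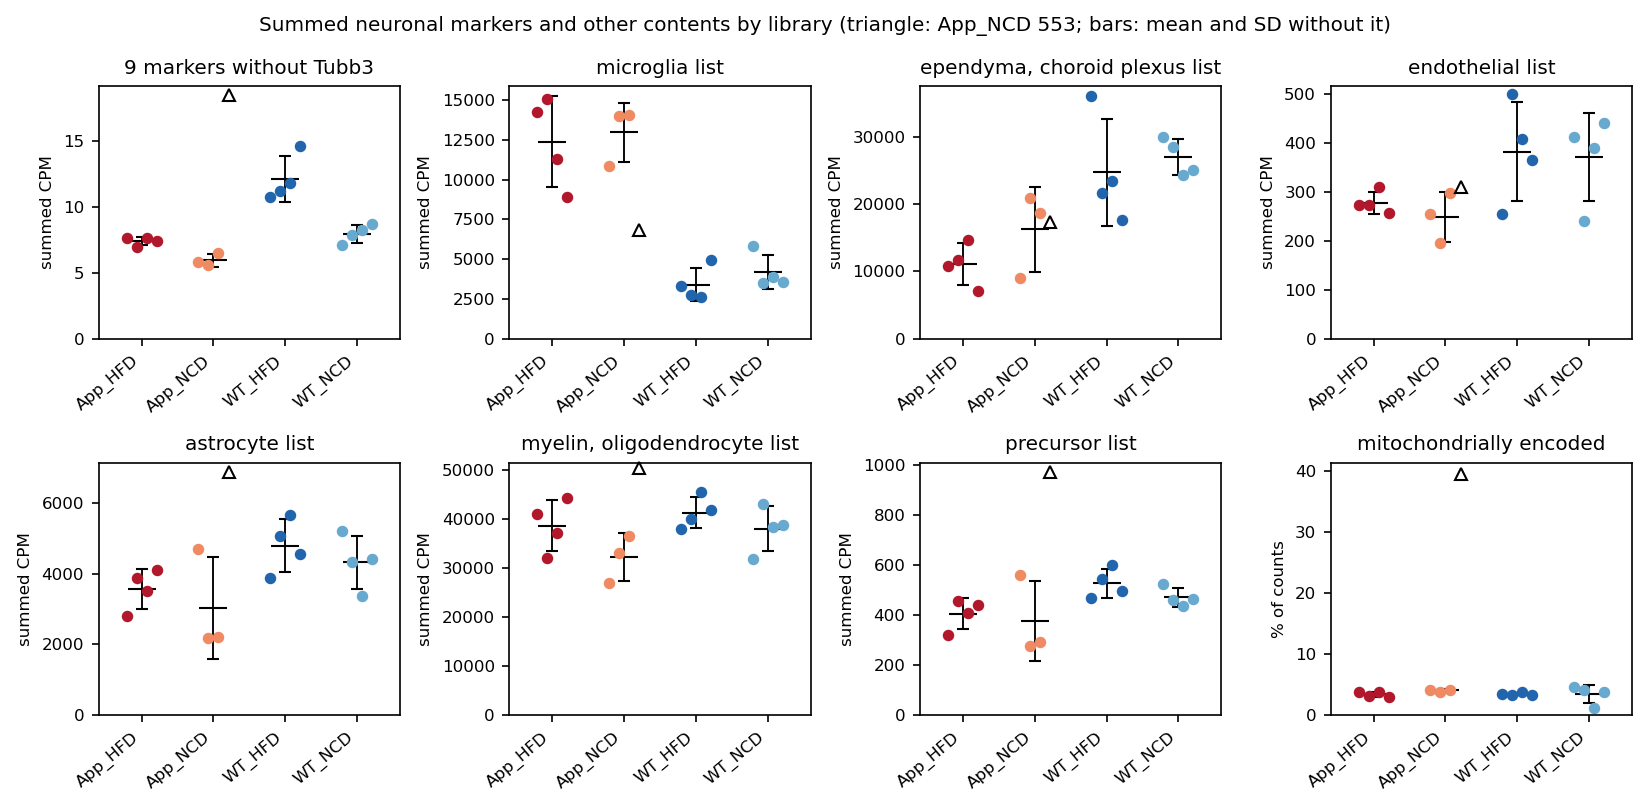
Summed CPM of the 9 markers without Tubb3 and of 6 lists of other cell types, and the percentage of counts on mitochondrially encoded genes, by library, with bars for the mean and SD without App_NCD 553 (triangle). The 9 markers are highest in the WT_HFD group apart from the triangle at 18.5 CPM, the microglial sum is higher in App than in WT libraries, and the mitochondrial share of the triangle is 39.4%.

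The first comparison was between the genotypes on the control diet. With all 16 libraries edgeR called 0 of the 10 markers between App_NCD and WT_NCD at an adjusted p under 0.05, where 8.39% of the tested genes were called. At an unadjusted p under 0.05 it had 2 of them, Slc17a7 and Nrgn, against 26.3% of all genes, and DESeq2 and limma-voom each called these 2 (15.9% and 33.2% of genes called). Slc17a7 had a log2 fold change of -2.08 ± 0.633 (SE, adjusted p = 0.0547) and Nrgn of -1.43 ± 0.542 (adjusted p = 0.110, edgeR). Without App_NCD 553 both were called lower, Nrgn at -1.11 ± 0.291 (adjusted p = 0.0174) and Slc17a7 at -1.84 ± 0.591 (adjusted p = 0.0433, edgeR), in a fit that called 17.5% of all genes and 7.22% as lower. The groups did not overlap, with App_NCD lower, for 3 markers, Stmn2, Slc17a7 and Nrgn, as for 8.27% of all genes. Stmn2 had a log2 fold change of -0.56 ± 0.306 with all 16 libraries (adjusted p = 0.258) and -0.61 ± 0.312 without mouse 553 (adjusted p = 0.193, edgeR).

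Leaving out mouse 553 turned the sign of 3 markers in this comparison. Snap25 had a log2 fold change of 1.02 ± 0.512 with the library and -0.13 ± 0.267 without it. Nefl had 0.43 ± 0.514 with it and -0.46 ± 0.380 without it, and Rbfox3 had -0.19 ± 0.588 with it and 0.12 ± 0.430 without it. None of these passed the test. The median log2 fold change of the 10 markers was -0.22 with all libraries, against -0.02 for all tested genes, and -0.46 without mouse 553, against -0.05; Slc17a7 enters both through the filter described above.

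On the high-fat diet edgeR again called 0 of the 10 markers between App_HFD and WT_HFD with all 16 libraries, where 7.14% of all genes were called. At an unadjusted p under 0.05 it had Syt1 and Nrgn, against 18.1% of genes; DESeq2 called these 2 and limma-voom these and Gad1 (11.7% and 30.7% of genes called). Syt1 had a log2 fold change of -1.33 ± 0.414 (adjusted p = 0.0671) and Nrgn of -1.18 ± 0.533 (adjusted p = 0.248, edgeR). Mouse 553 is in neither of these groups but widens the spread estimated over all of them, a biological coefficient of variation of 36.5% with it and 26.3% without it. Without it Syt1 fell by 1.35 ± 0.336 on the log2 scale in App_HFD (adjusted p = 0.0101) and Nrgn fell by 1.20 ± 0.264 (adjusted p = 0.00470, edgeR), where 19.3% of genes were called and 8.54% as lower. Both also had groups that did not overlap, which held in this direction for 10% of all genes. The other 6 markers with a negative log2 fold change did not pass. Without mouse 553 Slc17a7 had -0.90 ± 0.514, Gad1 -0.63 ± 0.296, Stmn2 -0.60 ± 0.282, Snap25 -0.46 ± 0.246, Gad2 -0.32 ± 0.446 and Nefl -0.28 ± 0.347. With all 16 libraries they had -0.87 ± 0.588, -0.62 ± 0.336, -0.59 ± 0.302, -0.44 ± 0.507, -0.29 ± 0.511 and -0.26 ± 0.513 in that order. At an unadjusted p under 0.05 the fit without mouse 553 had 4 markers, Gad1 and Stmn2 besides those called, against 30.9% of genes. The median over the 10 markers was -0.53 without that library, against -0.02 over all genes, and -0.51 with it, against 0.01. Here too Slc17a7 enters both medians through the filter described above.

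Nrgn was the marker called in both genotype comparisons without mouse 553. Its difference between the diets' genotype effects, the interaction, was -0.09 ± 0.390 without that mouse (adjusted p = 1.00) and 0.25 ± 0.747 with all 16 libraries (adjusted p = 0.930, edgeR). Other cell contents moved with genotype too. The 10 microglial genes summed to 8887 to 15099 CPM in App_HFD and 6837 to 14098 CPM in App_NCD libraries, against 2611 to 4922 CPM in WT_HFD and 3477 to 5796 CPM in WT_NCD libraries. Of these 10 genes 8 were called higher in App_HFD and 6 in App_NCD with all 16 libraries, where 5.09% and 6.5% of all genes were called higher (edgeR). Each of the 10 was above 0 in all libraries. The 8 genes of ependyma and choroid plexus summed to 7088 to 14754 CPM in App_HFD and 8987 to 21011 CPM in App_NCD libraries, against 17724 to 36155 CPM in WT_HFD and 24446 to 30091 CPM in WT_NCD libraries. The 9 endothelial genes summed to 255 to 309 CPM in App_HFD and 195 to 310 CPM in App_NCD libraries, against 255 to 500 CPM in WT_HFD and 239 to 441 CPM in WT_NCD libraries. The 5 erythroid genes summed to 147 to 467 CPM in App_HFD against 384 to 9049 CPM in WT_HFD libraries. On the control diet they overlapped, at 435 to 1195 CPM in App_NCD and 405 to 1084 CPM in WT_NCD libraries. The 7 pericyte and smooth muscle genes summed to 173 to 199 CPM in App_HFD against 158 to 344 CPM in WT_HFD libraries. They had 130 to 183 CPM in App_NCD against 234 to 300 CPM in WT_NCD libraries. The part of these contents in the values of Nrgn, Syt1 and Slc17a7 was not tested.

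**Figure D4:**
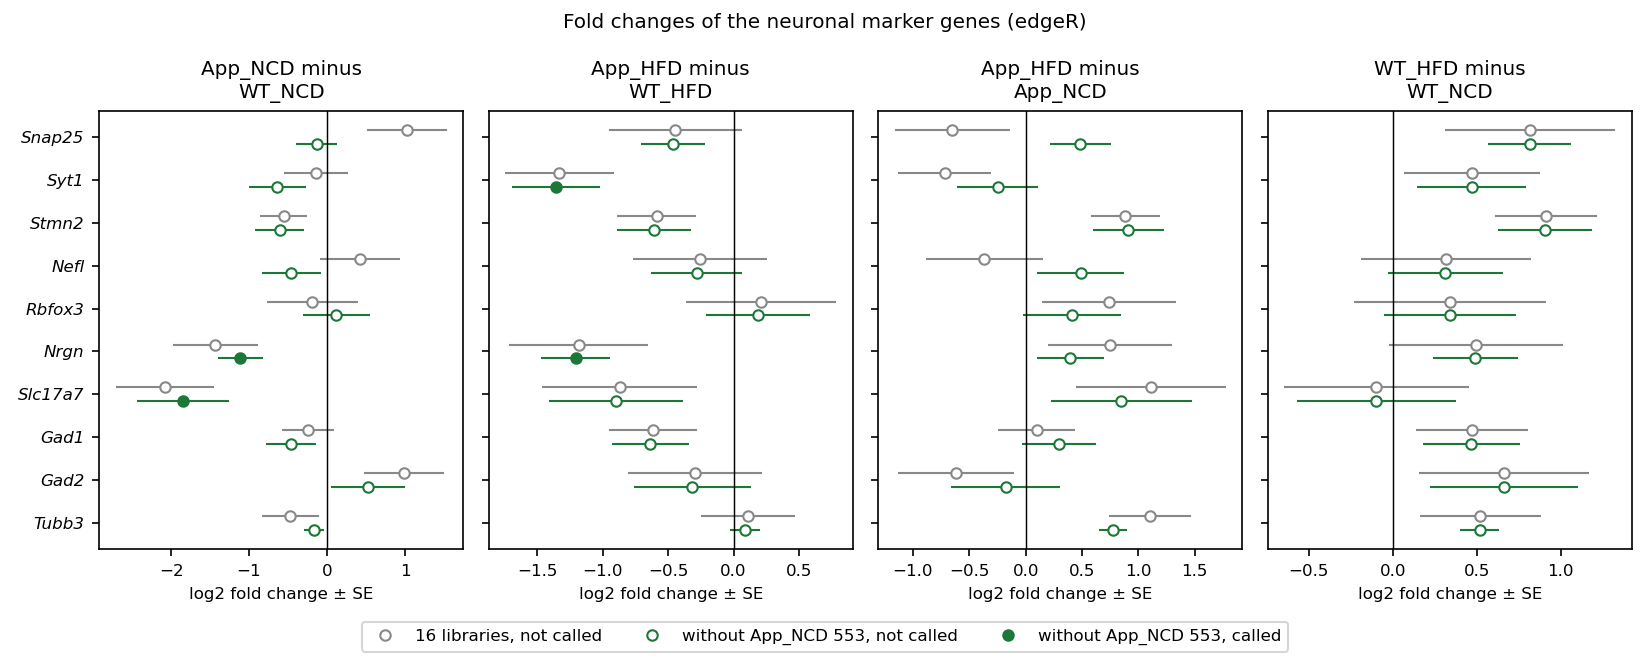
Log2 fold change of each marker with its standard error in 4 comparisons, from edgeR with 16 libraries (grey) and without App_NCD 553 (green), with filled points for adjusted p under 0.05. Filled points are Nrgn and Slc17a7 in App_NCD minus WT_NCD and Nrgn and Syt1 in App_HFD minus WT_HFD, all without that library; the grey and green points of Snap25 and Nefl stand on opposite sides of 0 in both comparisons that use App_NCD.

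The high-fat diet was compared within each genotype. In App mice edgeR called 0 of the 10 markers between App_HFD and App_NCD, as it called 0% of all genes. At an unadjusted p under 0.05 it had Tubb3 and Stmn2, against 11.9% of genes; DESeq2 called no marker and limma-voom called Tubb3 (0.542% and 0.74% of genes called). Tubb3 had a log2 fold change of 1.10 ± 0.365 (adjusted p = 0.391) and of 0.77 ± 0.125 without mouse 553 (adjusted p = 0.0778, edgeR). Stmn2 had 0.88 ± 0.309 (adjusted p = 0.392), and 0.91 ± 0.316 without mouse 553 (adjusted p = 0.524). These 2 were the markers whose groups did not overlap, App_HFD being higher, as for 3.23% of all genes.

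In wild types edgeR called 0 of the 10 markers between WT_HFD and WT_NCD, and likewise 0% of all genes. Stmn2 had an unadjusted p under 0.05 (1.92% of genes did), while DESeq2 and limma-voom called none of the markers (0.0328% and 0.0276% of genes called). Without mouse 553 there were 3 such markers, Stmn2, Snap25 and Tubb3, against 5.1% of genes. Stmn2 had a log2 fold change of 0.91 ± 0.302 (adjusted p = 1) with all libraries and of 0.91 ± 0.281 without mouse 553 (adjusted p = 0.712, edgeR). Snap25 had 0.82 ± 0.508 with all libraries (adjusted p = 1) and 0.81 ± 0.246 without mouse 553 (adjusted p = 0.712, edgeR). Tubb3 had groups that did not overlap, WT_HFD being higher, as for 1.57% of all genes. Its log2 fold change was 0.52 ± 0.362 with all libraries and 0.52 ± 0.114 without mouse 553 (adjusted p = 0.642, edgeR). Of the 10 markers 9 had a positive log2 fold change with a median of 0.48, against -0.02 for all genes, and the exception was Slc17a7 at -0.10 ± 0.549. The erythroid genes, a sign of blood left in the tissue, also varied in this comparison, from 384 to 9049 CPM in WT_HFD and from 405 to 1084 CPM in WT_NCD libraries, and their part was not tested.

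For the interaction, which asks whether the diet moved a marker differently in App and WT mice, edgeR called 0 of 10 markers and 0% of all genes. It had 0 of the 10 at an unadjusted p under 0.05, where 2.94% of genes were, and DESeq2 and limma-voom called none either (0.014% and 0% of genes). The largest values with 16 libraries were Snap25 at -1.47 ± 0.720 and Gad2 at -1.28 ± 0.725 (both adjusted p = 0.851, edgeR). Without mouse 553 Snap25 had -0.33 ± 0.362 and Gad2 -0.84 ± 0.652, and the 10 interaction values ran between -0.84 and 0.95.

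Across the 15 libraries other than mouse 553 the log2 CPM of single markers followed the mean of all 10 unevenly. Pearson's r with that mean, to which each marker itself contributes, was 0.78 for Nrgn, 0.76 for Stmn2, 0.73 for Snap25, 0.69 for Gad1 and 0.67 for Slc17a7. It was lower for Nefl at 0.59, Tubb3 at 0.54, Gad2 at 0.52, Syt1 at 0.48 and Rbfox3 at 0.28. With mouse 553 included Snap25 had -0.17 and Nefl -0.14. Of 13344 other genes averaging 1 CPM or more, those that followed the markers' mean most closely over the 15 libraries were Tcf7 (r = 0.91), Jcad (0.89), Nck2 (0.89), Rasgrp2 (0.88), Cxcl12 (0.87), Palm (0.87), Zfp366 (0.86) and Pecam1 (0.86). With mouse 553 the value of Tcf7 was 0.34 and that of Palm 0.93. These correlations describe libraries that differ in group and whose days of preparation are not given, and Pecam1 is among the 9 endothelial genes summed above.

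The wider set of neuronal genes, 90 in 9 lists chosen with earlier results of these data known, was not uniformly scarce. In these bulk libraries a high level does not tell which cell type the RNA came from, and the source was not tested. Of the 90 genes 46 averaged under 1 CPM over the 15 libraries, 24 between 1 and 10 CPM and 20 at least 10 CPM, of which 5 reached 100 CPM. The abundant ones included Mapt, the microtubule-binding protein tau, at 827 CPM and Elavl3, an RNA-binding protein, at 305 CPM. Sv2a, a synaptic vesicle glycoprotein, had 279 CPM, Ppp1r1b, the striatal phosphatase inhibitor DARPP-32, 134 CPM, and Vamp2, the vesicle SNARE, 125 CPM. At the other end 19 genes did not pass the filter on low counts, among them 6 of the 8 hypothalamic peptide genes. Gabra6, a receptor subunit of cerebellar granule cells, and Crh, a hypothalamic releasing hormone, had no count in any library; they are named after their values were seen.

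Between the genotypes genes of these lists were called in both directions. With all 16 libraries edgeR called 5 of the 71 tested genes between App_NCD and WT_NCD, or 7.04%, a share near the 8.39% of all genes. Higher in App_NCD were Npy, a neuropeptide, at 2.83 ± 0.585, Elavl4 at 1.98 ± 0.380 and Sv2b at 1.77 ± 0.325 (log2 fold changes ± SE, adjusted p between 0.00295 and 0.00713). Lower were Syn2, a synapsin, at -0.90 ± 0.232 (adjusted p = 0.0256) and Drd1, a dopamine receptor of striatal neurons with a mean of 0.0780 CPM, at -3.30 ± 0.898 (adjusted p = 0.0342, edgeR). Drd1 had 4 counts in the App_NCD libraries, all in mouse 538, against 80 in the WT_NCD libraries. It passed the low-count filter through 3 WT_HFD and 3 WT_NCD libraries, so its lower value in App libraries is not free of that selection. Without mouse 538 its fitted value was -6.88 ± 1.30, which then rests on App_NCD libraries at 0. Its call was lost without App_NCD 537 or 545, App_HFD 547, or WT_NCD 5, 11 or 12, at -3.35 to -2.81 (adjusted p between 0.0536 and 0.0908, edgeR). That of Syn2 was lost without App_NCD 545 at -0.83 or WT_NCD 5 at -0.92 (adjusted p = 0.0506 and 0.0570, edgeR).

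Between App_HFD and WT_HFD 3 of the 71 were called, or 4.23%, against 7.14% of all genes: Npy at 1.99 ± 0.568 and Sv2b at 1.40 ± 0.321 higher, and Cplx2, a complexin, at -0.89 ± 0.238 lower (adjusted p between 0.0135 and 0.0460, edgeR). The call of Npy was lost in 13 of the 16 fits that left out 1 library, at 1.85 to 2.12 (adjusted p up to 0.147), and kept without App_NCD 537, 538 or 553. That of Cplx2 was lost in 7 of them, without any 1 of the App_HFD libraries or without WT_HFD 2, 3 or 16, at -0.97 to -0.83 (adjusted p up to 0.104). That of Sv2b was lost in 3, without App_HFD 559, WT_HFD 2 or WT_HFD 15, at 1.23 to 1.32 (adjusted p up to 0.0630, edgeR). Without mouse 553 these 3 genes and the 5 of the control diet kept their calls and directions, with Npy on the control diet at 1.56 ± 0.306.

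Without mouse 553 more genes of these lists passed, 13 of 72 tested on the high-fat diet (18.1%, against 19.3% of all genes) and 11 on the control diet (15.3%, against 17.5%). Those of the striatal list were all lower in App libraries. Rgs9, a regulator of dopamine signalling, had -1.15 ± 0.227 in App_HFD against WT_HFD and -0.79 ± 0.242 in App_NCD against WT_NCD. Adora2a, the adenosine receptor of striatal neurons, had -0.83 ± 0.255 and -1.11 ± 0.280 in these comparisons, and Ppp1r1b -1.01 ± 0.266 in App_HFD against WT_HFD (adjusted p between 0.00225 and 0.0375, edgeR). With all 16 libraries these values did not pass, at -1.13 ± 0.346 and -0.24 ± 0.339 for Rgs9, -0.81 ± 0.612 and -1.47 ± 0.621 for Adora2a and -0.99 ± 0.347 for Ppp1r1b (adjusted p between 0.0624 and 0.669, edgeR). Without mouse 553, 3 of the 8 striatal genes were called lower in each comparison and none higher, where 8.54% of all genes were called lower on the high-fat and 7.22% on the control diet. Drd1, which passed the filter through WT libraries, is 1 of the 3 on the control diet. The log2 fold changes of the 8 striatal genes had medians of -1.11 on the high-fat and -0.62 on the control diet against -0.02 and -0.05 over all genes. Drd1 enters both medians, so neither is free of that selection. Over the 15 libraries other than mouse 553 the striatal genes summed to a mean of 139 CPM, of which Ppp1r1b made up 134 CPM. The ependyma and choroid plexus sum was also lower on average in App than in WT libraries on either diet. Its part in these striatal values was not tested. In the list of cytoskeletal and RNA-binding genes Map2 at -0.52 ± 0.154 and Thy1 at -0.65 ± 0.208 were lower in App_HFD, and Rbfox1 at 1.02 ± 0.239 and Elavl4 at 1.00 ± 0.336 higher (adjusted p between 0.00723 and 0.0498, edgeR). The synaptic vesicle list likewise gave calls in both directions on either diet, with Unc13a, a priming factor, at 0.70 ± 0.140 in App_HFD (adjusted p = 0.00255) and 0.74 ± 0.149 in App_NCD (adjusted p = 0.00327, edgeR). With all 16 libraries Map2, Thy1, Rbfox1 and Elavl4 in App_HFD and Unc13a on either diet did not pass (adjusted p between 0.128 and 0.437, edgeR), with Unc13a in App_NCD at 0.45 ± 0.359.

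**Figure D5:**
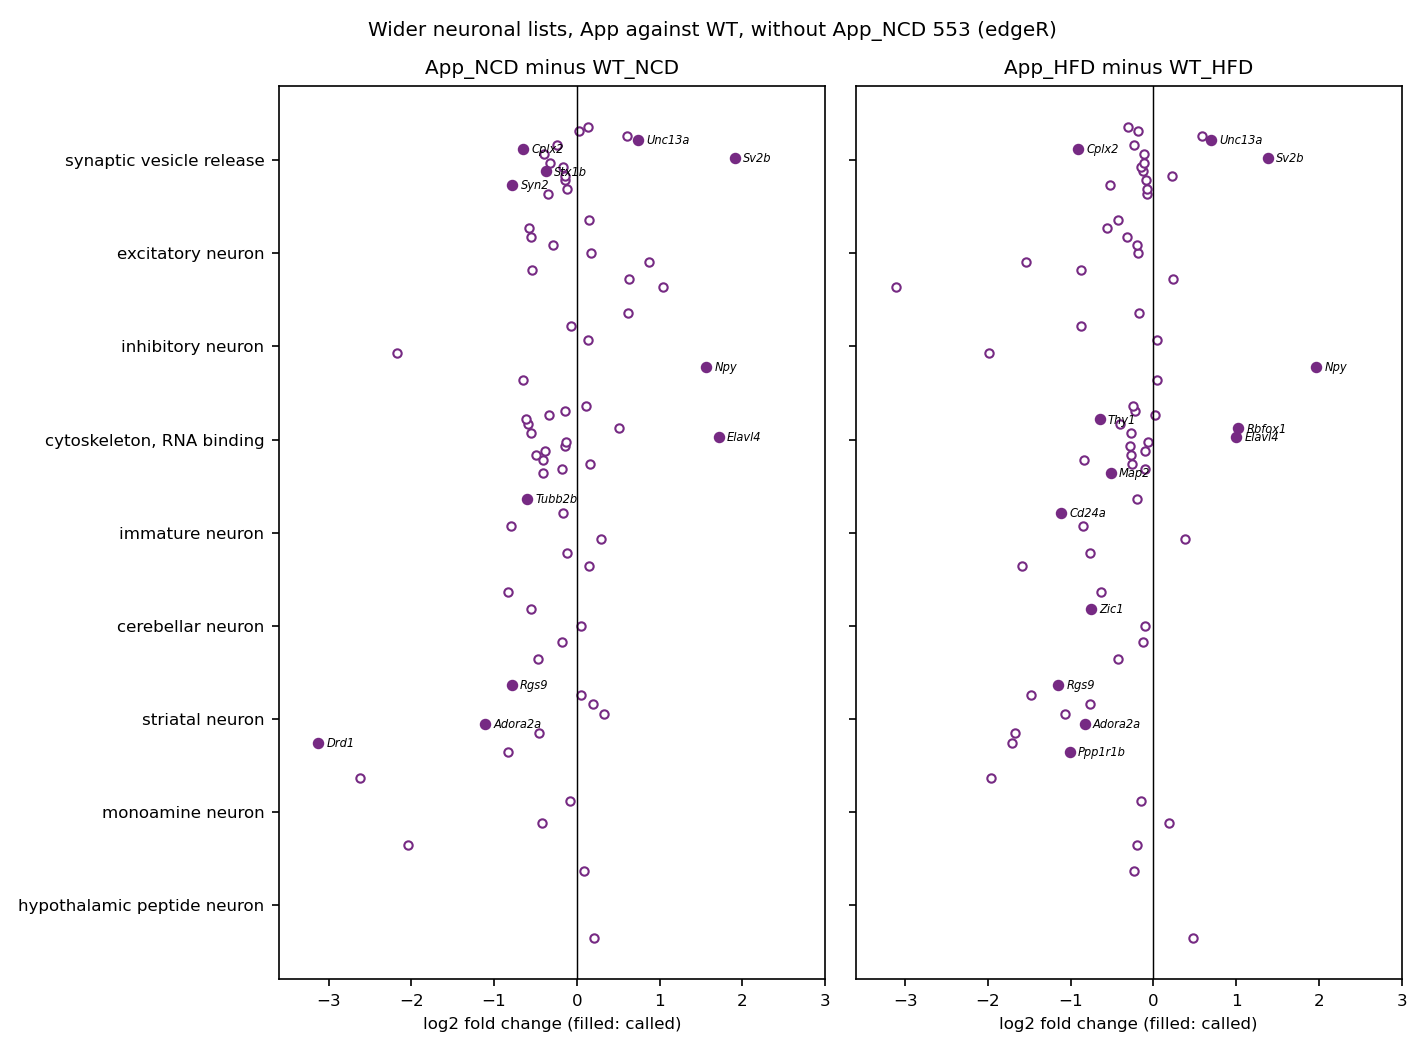
Log2 fold change between App and WT libraries of the tested genes of 9 further neuronal lists, without App_NCD 553, with filled and named points for adjusted p under 0.05 (edgeR). Sv2b, Npy and Elavl4 stand to the right of 0 on both diets, and the called genes of the striatal row, Rgs9 and Adora2a among them, stand to its left.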

How the data were processed

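RNA from sorted oligodendrocytes of 16 mice was measured by RNA-seq. Per the submitters' processing notes, reads were handled with fastp 0.23.2, HISAT2 2.2.1, StringTie 2.2.1 and bedtools 2.25.0 on mm10; the gene annotation used for counting and its strand setting are not given in the sources used here. The authors deposited estimated counts per gene, unnormalized, for every mouse. All values were whole, so rounding changed none, and every value column was used.

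Genes passing edgeR's filterByExpr (minimum count 10) were scaled by TMM and tested with edgeR 4.0.16 (R 4.3.3, quasi-likelihood, 1 model of 4 groups, 12 residual degrees of freedom), and p-values adjusted by Benjamini-Hochberg across the tested genes were called under 0.05. DESeq2 1.42.0 and limma 3.58.1 (voom with quality weights), other scalings and filters, and leaving out each library were the alternatives. The test was tried on simulated data. Exon lengths came from GENCODE M21, which held 99.7% of the table's IDs. Each library is 1 numbered mouse. The p-values set a group difference against the spread between mice within the groups.

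The members and gene lists were chosen with earlier results of these data known. All 10 members are named; of other lists up to 4 genes by mean CPM over 16 libraries, plus called ones; and the 8 genes most correlated with the members' mean. Some genes of the wider neuronal lists are not reported here, and counts over those lists leave them out.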

Additional observations from a re-analysis of the deposited data

Results flagged for a closer look

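In 40 checks of a marker within a group of 4 libraries, 6 had 1 library far from the other 3, where chance gives about 1 in 20. Of these, 4 were App_NCD 553. It had 9.63 CPM of Snap25 where the other App_NCD libraries had 1.36 to 2.09 CPM, and 2.19 CPM of Nefl where they had 0.386 to 0.578 CPM. It had 8.46 CPM of Tubb3 where they had 46.1 to 53.0 CPM, and 0 CPM of Rbfox3 where they had 0.190 to 0.204 CPM. This is the library with 39.4% mitochondrial counts, and the part of that share in these values was not tested. The remaining 2 concerned Slc17a7, at 0.214 CPM in App_HFD 560 where the other App_HFD libraries had 0.0456 to 0.0686 CPM, and at 0.257 CPM in WT_NCD 12 where the other WT_NCD libraries had 0.150 to 0.162 CPM. The first of these rests on 14 counts against 3 to 5.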

How the results depend on the processing

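No paired analysis was possible because the mouse numbers differ between all groups. The number of markers called by edgeR was 0 in all 5 comparisons with 16 libraries. For App_NCD minus WT_NCD it was 1 with mitochondrially encoded genes removed (Slc17a7), and 2 with DESeq2, with limma-voom and at an unadjusted p under 0.05. For App_HFD minus WT_HFD it was 1 with library totals alone and 1 with at least 10 counts in all libraries (both Syt1), 2 with DESeq2, with only these groups in the fit and at an unadjusted p, and 3 with limma-voom. For WT_HFD minus WT_NCD it was 1 at an unadjusted p. For App_HFD minus App_NCD it was 1 with limma-voom and 2 at an unadjusted p. The interaction stayed at 0 under each alternative run. Leaving out each library in turn gave 0 to 2 for App_NCD minus WT_NCD and for App_HFD minus WT_HFD, with 2 without App_NCD 553 and 1 without App_HFD 560 (Slc17a7 and Syt1 by comparison), and 0 to 0 for the others. The cause of these moves was not tested.

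Some log2 fold changes turned sign, none of which passed a test. For App_NCD minus WT_NCD, limma-voom gave Snap25 -0.27, Gad2 -0.40, Nefl -0.30 and Rbfox3 0.056; library totals gave Nefl -0.15 and scaling to the myelin genes Rbfox3 0.032. For App_HFD minus App_NCD, limma-voom gave Snap25 0.40, Gad2 0.57 and Nefl 0.63; library totals gave Nefl 0.12 and myelin scaling Gad1 -0.0021. Leaving out 1 library at a time gave ranges across 0. For App_NCD minus WT_NCD they were -0.13 (without 553) to 1.26 for Snap25, -0.46 (without 553) to 0.65 for Nefl, -0.40 to 0.12 (without 553) for Rbfox3 and -0.64 (without 553) to 0.022 (without 537) for Syt1. For App_HFD minus WT_HFD they were -0.13 (without 547) to 0.41 for Rbfox3, also below 0 without 559, and -0.50 to 0.10 (without WT_HFD 3) for Nefl. For App_HFD minus App_NCD they were -0.92 to 0.49 (without 553) for Snap25, -0.62 to 0.49 (without 553) for Nefl and -0.11 (without 561) to 0.32 for Gad1, also below 0 without 538. For WT_HFD minus WT_NCD they were -0.075 (without WT_HFD 3) to 0.53 for Nefl and -0.30 to 0.11 (without WT_HFD 15) for Slc17a7, also above 0 without WT_NCD 12.

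Relative to TMM, library totals shifted the median log2 fold change of all genes by -0.28 (App_NCD minus WT_NCD) and 0.17 (App_HFD minus App_NCD), and myelin scaling by 0.11 in both genotype comparisons, -0.13 (WT_HFD minus WT_NCD) and -0.15 (App_HFD minus App_NCD). Genes called by edgeR numbered 1826 and 1554 for the genotype comparisons on the control and high-fat diets, 3900 and 4307 without App_NCD 553, and 3398 and 2508 with DESeq2. Depth limits Slc17a7 most, at 0 to 6 counts in App_NCD and 3 to 14 counts in App_HFD libraries. Rbfox3 had 8 to 29 counts a library and 0 in App_NCD 553. Of the marker fold changes under settings other than leaving out a library, 394 kept direction and side of the threshold, 22 newly passed it and 11 turned sign. Of these 22, 7 passed only because the main fit was read at its unadjusted p.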
